A study of Homo sapiens with 6 samples.

Results

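The genes described here encode phospholipases A2 and patatin-like lipases, enzymes that cut fatty acids from membrane phospholipids or from stored triglyceride. There are 10 of them: PLA2G12A, PLA2G12B, PLA2G4A, PLA2G6, PLA2G15, PLA2G16, PNPLA2, PNPLA3, PNPLA4 and PNPLA8. They hold 80 of the 199234 transcripts and 10 of the 58233 genes listed for each library. The genes were chosen by name, with results of the comparison below already known: summed over its transcripts, PLA2G12A was among the genes with the smallest p and a lower value with TP53TG1. Their values in that comparison are therefore a description, without a test. The cells are labelled Huh7, an established hepatocellular carcinoma line. For 3 libraries they were transfected with a plasmid that overexpresses TP53TG1, a long noncoding RNA, and for the 3 control libraries with a control plasmid, so that both groups went through transfection. No label gives the plasmid backbone, the time after transfection or a clone. The labels do not say whether replicates were separate cultures, so the spread between them may be technical.

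Phospholipases A2 release the fatty acid at the middle position of a phospholipid and leave a lysophospholipid. When that fatty acid is arachidonic acid, it feeds the synthesis of prostaglandins and leukotrienes. Secreted members such as PLA2G12A need calcium and act outside the cell or in the secretory pathway, cytosolic PLA2G4A is recruited to membranes by calcium, and PLA2G6 works without calcium. Patatin-like lipases share a catalytic fold first described in a potato storage protein. In liver cells PNPLA2 starts the breakdown of triglyceride in lipid droplets, and PNPLA3 is a lipid droplet protein.

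All values are treated as FPKM, which divides fragments by transcript length and library size, so they can be compared between genes. The headers name no unit, and StringTie also writes coverage, which is not divided by library size. If the values were coverage, differences between libraries would hold their depth too, and the fragment estimates would not apply. The depth of the libraries was estimated from the low end of FPKM times length, above a set floor. If that low value is 1 fragment, the depth ran from about 15200000 to 18900000 fragments. The floor helps set that low value, so the depth and the fragment numbers below are rough. TP53TG1, the check of the labels, stood at 10.6, 5.25 and 6.15 FPKM in controls 1 to 3 and at 69.8, 134 and 70.5 FPKM in TP53TG1 replicates 1 to 3, above all controls. Its log2 difference was 3.46, with a limma adjusted p of 0.0573 (Benjamini-Hochberg). The median of all 12853 tested genes (mean of at least 1 FPKM) lay 0.35 lower with TP53TG1 on the log2(FPKM + 1) scale, a shift that median-of-ratios scaling brought to -0.01. TP53TG1 replicate 1 had the lowest scaling factor, 0.615, against 0.994 to 1.19 in the other 5 libraries. In genes with several transcripts, the mean transcript length weighted by FPKM was 1397 and 1301 nt in the libraries numbered 1 and 1718 to 1778 nt in the others. Of 12 hepatocyte markers 6 reached a mean of 1 FPKM (AFP, APOB, TF, HNF4A, FGB and SERPINA1). ALB, APOA1, TTR, CYP3A4, TAT and ASGR1 did not. The 12 together lay at 39.8 to 60.2 FPKM in controls and 18.3 to 52.2 FPKM with TP53TG1. Of 6 intestinal epithelial markers 4 reached that mean (CDH17, VIL1, CDX2 and KRT20), and LGR5 and MUC2 did not. These 6 together lay at 157 to 212 FPKM in controls and 65.2 to 145 FPKM with TP53TG1. Their part in the results below was not tested.

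PLA2G12A lies on chromosome 4, 109709989 to 109730077, minus strand (GRCh38). The tables list 4 transcripts for it. ENST00000243501, of 5226 nt, encodes the secreted enzyme from 4 exons, and ENST00000502283, of 1189 nt, encodes the enzyme from 4 exons with a shorter exon 2. ENST00000507961, of 755 nt, skips exon 2 and is annotated as a target of nonsense-mediated decay. ENST00000502772, of 245 nt, is annotated as a processed transcript without a coding sequence. It consists of exons 2 and 3 of ENST00000243501 plus 2 bases, so that 243 of its 245 bases also lie in the coding transcript. These sequences are shown because the 245 nt transcript holds most of the difference between the groups in summed FPKM, and less of it once transcripts are weighted by length. They come from GENCODE release 29 (GRCh38) and are written 5′ to 3′. In the first, at chr4:109717548-109718761 with the intron left out, capitals mark the 2 extra bases, which belong to the intron in the other transcripts. In the second, exon 2 at chr4:109718683-109718759, capitals mark the 6 bases that the exon 2 of ENST00000502283 (last line, chr4:109718689-109718759) lacks.
ENST00000502772: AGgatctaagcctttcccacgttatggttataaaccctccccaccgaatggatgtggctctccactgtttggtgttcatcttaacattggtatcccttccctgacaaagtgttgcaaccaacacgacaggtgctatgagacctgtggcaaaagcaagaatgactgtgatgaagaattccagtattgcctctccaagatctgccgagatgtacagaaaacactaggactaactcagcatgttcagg
ENST00000243501 exon 2: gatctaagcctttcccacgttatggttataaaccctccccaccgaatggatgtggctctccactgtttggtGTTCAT
ENST00000502283 exon 2: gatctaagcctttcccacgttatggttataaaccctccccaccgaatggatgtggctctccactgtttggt

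**Figure D1:**
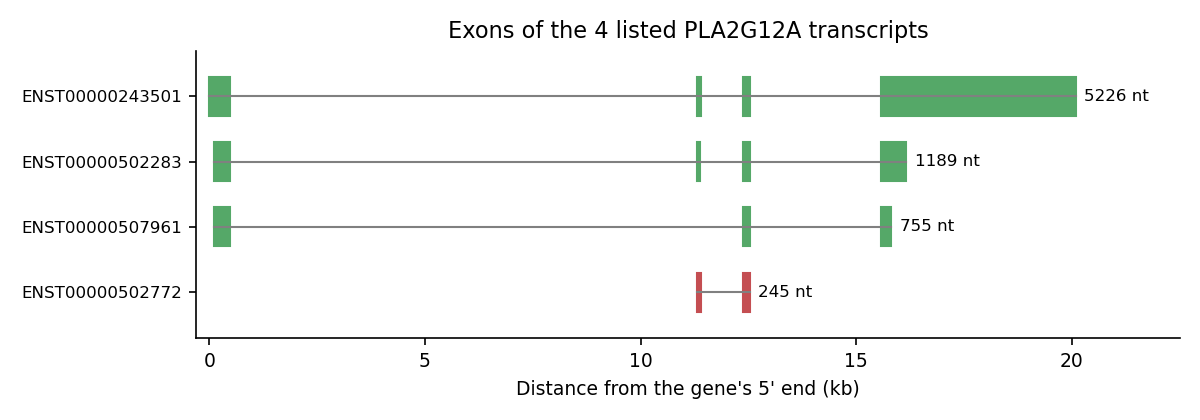
Exons (boxes) and introns (lines) of the 4 listed PLA2G12A transcripts, drawn to scale in kb from the 5′ end of the gene. The 245 nt transcript (red) has only the 2 middle exons, and ENST00000243501 has a last exon much longer than those of the others.

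Summed over its 4 transcripts, PLA2G12A stood at 30.2, 15.3 and 31.0 FPKM in controls 1 to 3 and at 6.88, 7.98 and 6.20 FPKM in TP53TG1 replicates 1 to 3. The groups did not overlap, and without scaling all TP53TG1 values lay within a narrow band. The means were 25.5 ± 8.86 and 7.02 ± 0.898 FPKM (SD, n = 3 each), a ratio of 0.275. The log2 difference was -1.66 on the log2(FPKM + 1) scale and -1.29 after median-of-ratios scaling. Scaled, the values were 27.0, 12.8 and 26.1 FPKM in controls 1 to 3. They were 11.2, 7.15 and 6.24 FPKM in TP53TG1 replicates 1 to 3, still without overlap. With libraries paired by number, TP53TG1 stood at 0.23, 0.52 and 0.20 times its control, and after scaling at 0.41, 0.56 and 0.24 times. On the log2 scale 22 of the 12853 tested genes had a lower difference.

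Most of that difference in FPKM came from the 245 nt transcript. ENST00000502772 stood at 15.9, 7.44 and 20.9 FPKM in the controls, was listed at 0 in TP53TG1 replicates 1 and 3, and stood at 1.48 FPKM in replicate 2. Its share of the summed value was 48.8% to 67.5% in controls and 0% to 18.5% with TP53TG1. Its means differed by 14.3 FPKM, 77.3% of the difference of the whole gene. Weighted by length, it held 26.4% of the gene's difference and the full-length ENST00000243501 held 50.8%. A value listed at 0 can be a failed estimate, and nearly all of this transcript's bases are shared with ENST00000243501, so how StringTie divided fragments between them cannot be seen in the tables. By the rough depth estimate ENST00000502772 rested on about 73.9, 32.0 and 91.9 fragments in controls 1 to 3 and 6.07 in TP53TG1 replicate 2.

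In FPKM the coding transcripts differed less. ENST00000243501, the full-length mRNA, stood at 4.62, 4.82 and 4.51 FPKM in the controls and at 2.62, 4.01 and 3.46 FPKM with TP53TG1. All 3 controls were above all 3 TP53TG1 libraries, by a ratio of means of 0.723. Such an order held for 13.3% of all tested genes without scaling, and the share of all transcripts was not computed. After median-of-ratios scaling the same transcript read 4.13, 4.05 and 3.80 against 4.26, 3.59 and 3.48 FPKM, and the groups overlapped. ENST00000502283 ranged from 0 to 7.98 FPKM and ENST00000507961 from 0.98 to 3.00 FPKM, both with overlapping groups.

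**Figure D2:**
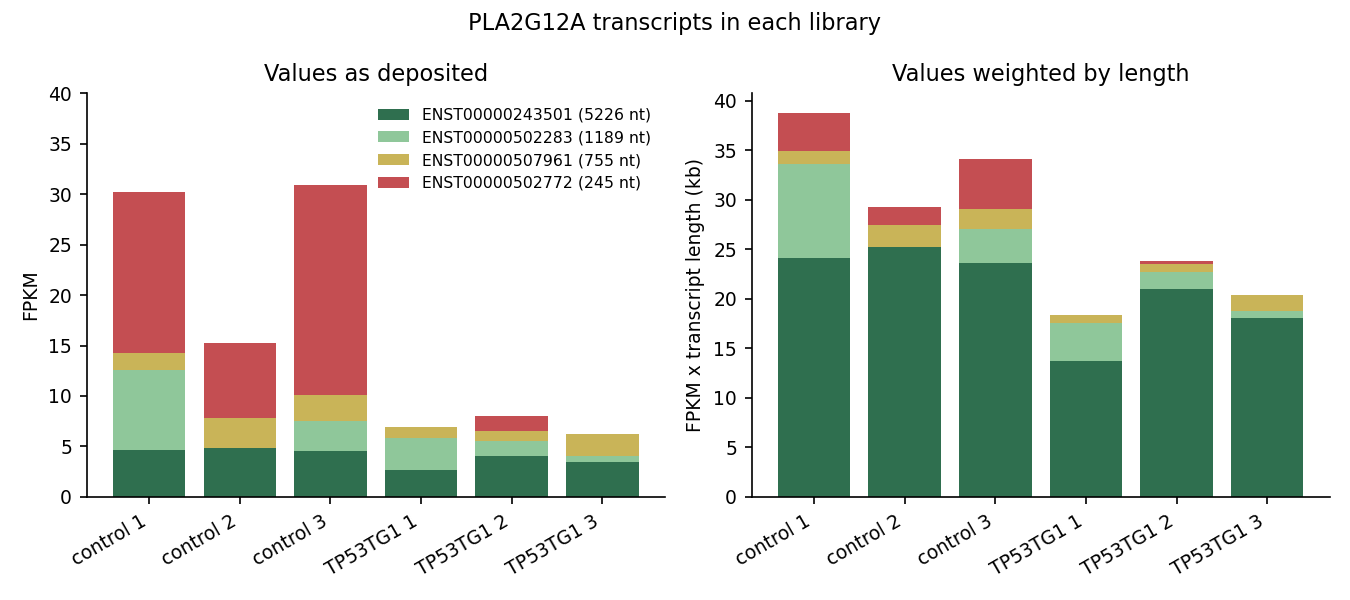
PLA2G12A transcripts stacked for each of the 6 libraries, in FPKM as deposited (left) and as FPKM times transcript length in kb (right). The 245 nt transcript (red) fills 48.8% to 67.5% of the left control bars and 6.23% to 15.0% of the right ones.

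FPKM divides by transcript length, so a sum over transcripts gives a fragment of a 245 nt transcript far more weight than one of a 5226 nt transcript. Multiplying each FPKM by its length in kb before adding gives a value proportional to the gene's share of the library's fragments. On that scale PLA2G12A read 38.8, 29.3 and 34.2 in controls 1 to 3 and 18.3, 23.9 and 20.4 in TP53TG1 replicates 1 to 3. The groups still did not overlap, but the ratio of means was 0.612 in place of 0.275. With median-of-ratios scaling added the values were 34.7, 24.6 and 28.8 against 29.8, 21.4 and 20.5, the groups overlapped, and the ratio was 0.813. The log2 difference went from -1.66 to -0.66 with length weighting (each gene's mean kept as it was), and to -0.29 with both. With length weighting alone, 958 of the 12853 genes had a lower difference than PLA2G12A. This weighting was chosen after the values had been seen. Leaving the 245 nt transcript out of the plain sum gave 14.3, 7.82 and 10.1 against 6.88, 6.50 and 6.20 FPKM, a ratio of 0.609 (0.836 with overlapping groups after scaling). The gene's transcripts together rested on an estimated 278 to 734 fragments per library.

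Other short transcripts were read beside it. Transcripts under 300 nt in genes with several transcripts held 0.403% to 0.489% of those genes' FPKM in the controls and 0.429% to 0.601% with TP53TG1, so the groups overlapped. Of these 3082 transcripts, 163, 188 and 204 were above 0 in controls 1 to 3 and 104, 186 and 190 in TP53TG1 replicates 1 to 3, with the lowest number in the library of the highest share. Their part in the value of ENST00000502772 was not tested. Over the tested genes, length weighting moved the log2 difference by a median of 0.028, and by more than 0.5 in 46 genes. PLA2G12A moved by 1.00, and only RGPD6, named after its value was seen, moved further. The largest move among the other phospholipase and patatin-like genes was 0.11.

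**Figure D3:**
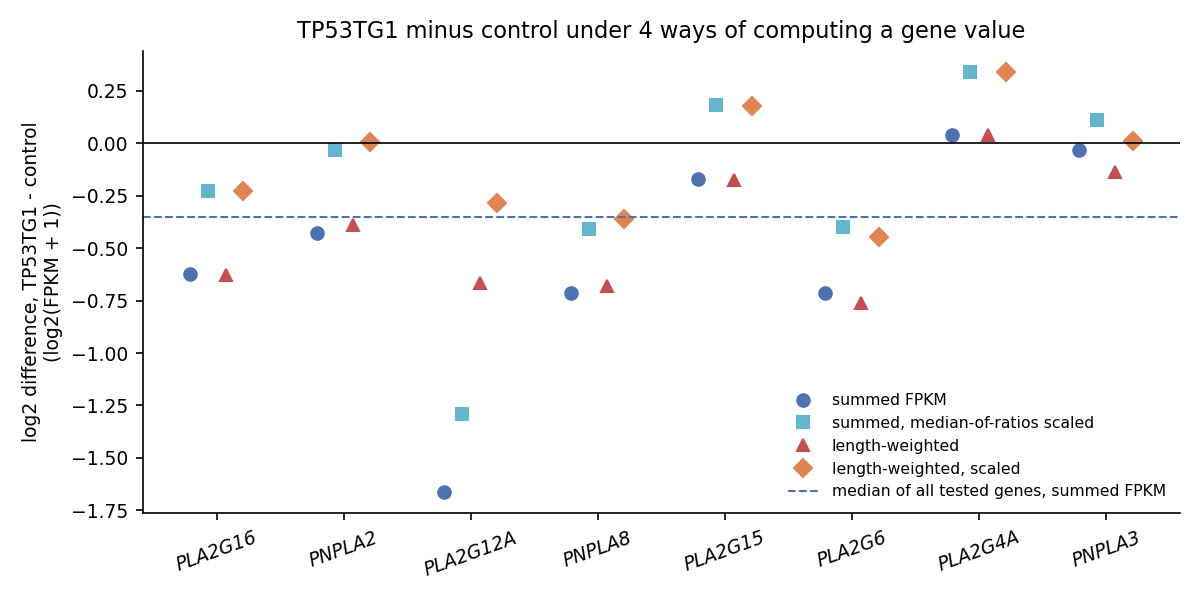
Log2 difference, TP53TG1 minus control, of the 8 genes with values above 0, computed from summed FPKM, summed and scaled FPKM, length-weighted FPKM, and length-weighted and scaled FPKM. PLA2G12A moves from -1.66 to -0.66 with length weighting, and to -0.29 with scaling added. The other 7 genes move by at most 0.11 with length weighting alone. The dashed line marks the median of all tested genes, -0.35.

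PLA2G12B encodes the closest relative of PLA2G12A, a secreted protein with an altered active site that takes part in lipoprotein secretion by the liver. Its 1 transcript was listed at 0 in all 6 libraries. PLA2G12A was thus the only group XII gene with a value above 0.

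PLA2G16, an adipose-type phospholipase A and acyltransferase gene (chromosome 11, 63573195 to 63616883), was the highest of the set. It stood at 154, 76.6 and 69.7 FPKM in the controls and at 78.0, 57.2 and 49.5 FPKM with TP53TG1, with the highest value of each group in the library numbered 1. The means were 100.2 ± 47.1 and 61.6 ± 14.7 FPKM (SD, n = 3 each), the groups overlapped, and the log2 difference was -0.63, or -0.23 after scaling. Paired by number, TP53TG1 stood at 0.505, 0.747 and 0.711 times its control, and after scaling at 0.917, 0.796 and 0.850 times. Without scaling the paired ratios of PLA2G12A, PLA2G6, PLA2G15 and PNPLA8 were also all below 1. Those of PLA2G4A, PNPLA2 and PNPLA3 lay on both sides of 1. The share of all genes with every ratio below 1 was not computed. Its 2 main coding transcripts did not overlap between the groups: ENST00000415826 stood at 77.7, 49.1 and 42.7 against 40.6, 37.5 and 33.0 FPKM, and ENST00000323646 at 31.7, 21.2 and 23.5 against 13.7, 19.1 and 14.5 FPKM. After scaling both overlapped. Without scaling, 13.3% of all tested genes had TP53TG1 lower without overlap, and the share of all transcripts was not computed. ENST00000394613, a processed transcript of 678 nt, followed the replicate number instead, at 44.9 and 23.6 FPKM in control and TP53TG1 replicate 1 and at 0.61 to 6.33 FPKM in the other 4 libraries.

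PLA2G4A, the cytosolic enzyme that releases arachidonic acid, had 1 transcript above 0. It stood at 3.50, 4.41 and 2.88 FPKM in the controls and at 2.22, 4.89 and 4.43 FPKM with TP53TG1. The groups overlapped, with means of 3.60 ± 0.769 and 3.85 ± 1.43 FPKM (SD, n = 3 each). It was the 1 gene of the set with a positive log2 difference without scaling (0.04), which turned negative without control replicate 3 and without TP53TG1 replicate 2 or 3. After scaling it read 3.13, 3.71 and 2.43 against 3.61, 4.38 and 4.46 FPKM, so that 1 control lay within the TP53TG1 range.

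PLA2G6, the calcium-independent enzyme, stood at 4.05, 3.82 and 4.94 FPKM in the controls and at 2.70, 3.40 and 1.01 FPKM with TP53TG1. All TP53TG1 values were below all controls, with the lowest in replicate 3, and the ratio of means was 0.555. After scaling the values were 3.62, 3.21 and 4.16 against 4.39, 3.04 and 1.02 FPKM, and TP53TG1 replicate 1 was the highest of the 6. The log2 difference of -0.71 was -0.38 without TP53TG1 replicate 3. Its FPKM were spread thinly: 15 of 28 transcripts were above 0 in some library, and the highest single value was 1.38 FPKM. The retained-intron transcript ENST00000496409, the highest on average, ranged from 0.18 to 1.04 FPKM, and the processed transcript ENST00000490473 from 0 to 1.12 FPKM. The coding transcript ENST00000402064 ranged from 0.20 to 1.38 FPKM and ENST00000332509 from 0 to 0.74 FPKM. MAFF, a transcription factor gene whose locus overlaps PLA2G6 on the other strand, ranged from 5.59 to 15.7 FPKM. Whether the libraries keep the strand is not given in the sources used here, so fragments of the overlap may not be separable.

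PLA2G15, the lysosomal enzyme, varied least. It stood at 7.86, 5.72 and 6.31 FPKM in the controls and at 5.37, 5.69 and 6.20 FPKM with TP53TG1. The groups overlapped, and the log2 difference was -0.17 without scaling and 0.18 with it. ENST00000219345, its main coding transcript, held 69.1% to 94.4% of its FPKM in a library.

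PNPLA2, the gene of adipose triglyceride lipase (chromosome 11, 818902 to 825573), was the highest patatin-like gene. It stood at 73.0, 40.2 and 53.5 FPKM in the controls and at 53.4, 41.7 and 28.3 FPKM with TP53TG1. The groups overlapped, with means of 55.6 ± 16.5 and 41.2 ± 12.5 FPKM (SD, n = 3 each). The log2 difference was -0.43, and -0.03 after scaling. A single coding transcript, ENST00000336615, held 86.1% to 94.0% of its FPKM.

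PNPLA8, the gene of a calcium-independent phospholipase of mitochondria and peroxisomes (chromosome 7, 108470422 to 108569666), was low in the library numbered 1 of both groups. Its values were 6.19, 19.7 and 18.2 FPKM in controls 1 to 3 and 1.41, 18.7 and 12.6 FPKM in TP53TG1 replicates 1 to 3. These are also the libraries with the shortest weighted transcript length, whose part in the result was not tested. The log2 difference was -0.72, but 0.21 without TP53TG1 replicate 1 and -0.29 without both libraries numbered 1. Its main coding transcripts, ENST00000257694 (3490 nt) and ENST00000436062 (3462 nt), both showed this, at 0.70 and 0 FPKM in TP53TG1 replicate 1 against 8.56 and 7.15 FPKM in replicate 2. The processed transcript ENST00000476592 ranged from 0 to 3.22 FPKM and was also lowest in the libraries numbered 1. THAP5, which overlaps PNPLA8 on the same strand, and DNAJB9, which overlaps it on the other, were also lowest in TP53TG1 replicate 1 (4.31 and 6.28 FPKM).

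PNPLA3, the lipid droplet gene on chromosome 22, was also lowest in the libraries numbered 1, with 0.77, 4.59 and 2.33 FPKM in the controls and 0.15, 4.48 and 3.90 FPKM with TP53TG1. The log2 difference was -0.03, 0.11 after scaling and 0.69 without TP53TG1 replicate 1. Its main coding transcript ENST00000216180 was listed at 0 in TP53TG1 replicate 1 and at 0.57 FPKM in control replicate 1. In the other 4 libraries it stood at 1.83 to 2.86 FPKM. The gene's 0.15 FPKM in TP53TG1 replicate 1 came from another coding transcript. ENST00000406117, a target of nonsense-mediated decay, ranged from 0 to 1.09 FPKM, and ENST00000497129, a processed transcript, was above 0 only in the libraries numbered 2 (0.72 and 1.23 FPKM). SAMM50, a mitochondrial outer membrane gene that overlaps PNPLA3 on the same strand, ranged from 16.9 to 35.0 FPKM and was highest in control replicate 1. PNPLA4, on chromosome X, whose enzyme can act on triglyceride and retinyl esters, was listed at 0 for its 4 transcripts in all libraries.

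**Figure D4:**
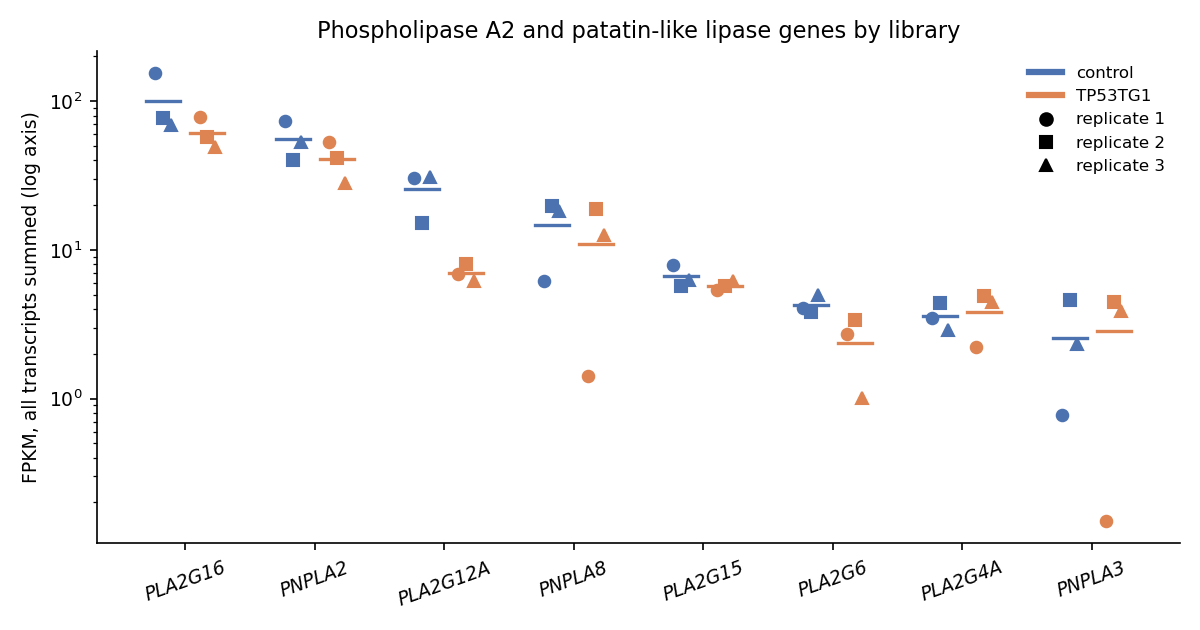
FPKM summed over transcripts on a log axis, for the 8 genes with values above 0, ordered by control mean. Points are libraries (shape gives the replicate number), and bars are group means. PLA2G12A and PLA2G6 are the genes whose groups do not overlap, and circles (replicate 1) lie lowest for PNPLA8 and PNPLA3.

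In the controls the order of levels was PLA2G16, PNPLA2, PLA2G12A, PNPLA8, PLA2G15, PLA2G6, PLA2G4A and PNPLA3. The control ranges of PLA2G16 and PNPLA2 overlapped, as did those of PLA2G12A and PNPLA8, of PNPLA8 and PLA2G15, of PLA2G6 and PLA2G4A, and of PLA2G4A and PNPLA3. Without its 245 nt transcript PLA2G12A had a control mean of 10.7 FPKM, between those of PNPLA8 (14.7 FPKM) and PLA2G15 (6.63 FPKM).

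Of the 10 genes, 8 passed the limit of a mean of 1 FPKM and 2 were listed at 0. Without scaling 7 of the 8 had a negative log2 difference, with a median of -0.53 against -0.35 for all tested genes. With scaling 5 were negative and 3 positive, with a median of -0.13 against -0.01. In the fit across all genes, by limma with Benjamini-Hochberg adjustment, 0 of the 8 were called, where 0.00778% of all genes were (1 gene, TTC28-AS1_2). PLA2G12A was the 1 of the 8 with an unadjusted p under 0.05. With the replicate number as a block PLA2G12A was called, where 1.49% of all genes were, and it was not called when scaling was added to the block. An unadjusted p under 0.05 in the blocked fit was given by 4 of the 8 (PLA2G12A, PLA2G16, PLA2G6 and PNPLA8), as by 1379 of all 12853 genes, and with scaling added by PLA2G12A alone, as by 683 genes. Among transcripts, 0 of the 17 tested were called by the same limma fit, where 0.00329% of all were, and 1 of the 17, a PLA2G12A transcript, had an unadjusted p under 0.05. Groups did not overlap, with TP53TG1 lower, for 2 of the 8 genes (PLA2G12A and PLA2G6), where 13.3% of all tested genes did so, and for 0 of 8 in the other direction, where 0.428% did. After scaling this held for PLA2G12A alone in the lower direction (2.18% of all genes) and for 0 genes in the higher (1.89%). With length weighting it held for PLA2G12A, PLA2G6 and PLA2G16 (14.3% of all genes), and for 0 of the 8 when scaling was added (2.25%). Nothing is read from these counts, since the comparison had a part in choosing the genes.

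Genes of the same and adjoining pathways gave no call either. Of 181 genes in 9 lists, 180 were in the tables and 116 were tested. By limma with Benjamini-Hochberg adjustment over all genes 0 rose and 0 fell, and 3 had an unadjusted p under 0.05, as had 302 of all 12853 genes. Their median log2 difference was -0.39, against -0.35 for all tested genes, and -0.03 against -0.01 after scaling. With the replicate block, where 1.49% of all genes were called, 1 of the 116 fell, MTTP, whose protein loads lipid onto apolipoprotein B (8.97, 20.1 and 8.06 FPKM in controls, 0.72, 10.9 and 3.87 FPKM with TP53TG1, adjusted p = 0.00317). Its groups overlapped, and the adjusted p was 0.750 with block and scaling and 0.748 with neither.

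Among the other phospholipase A2 and patatin-like genes, 9 of 25 were tested and 8 were listed at 0 throughout. Their median log2 difference was -0.37. PAFAH1B1, a regulatory subunit of a platelet-activating factor acetylhydrolase, had the smallest p, at 68.8, 63.6 and 53.3 FPKM in controls and 34.7, 49.6 and 40.3 FPKM with TP53TG1 (log2 difference -0.57, SE 0.271, limma adjusted p = 0.748). Of the relatives of PLA2G16, HRASLS2 stood at 7.99, 5.59 and 4.42 FPKM in controls and 4.10, 3.28 and 2.34 FPKM with TP53TG1, without overlap. After scaling its groups overlapped, and the log2 difference was -0.37. RARRES3 stood at 22.3 ± 14.6 and 23.4 ± 11.5 FPKM (SD, n = 3 each).

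Downstream of arachidonic acid, 14 of 26 eicosanoid genes were tested, with a median of -0.40. PTGS2, named after its value was seen, had the highest log2 difference of the list, at 0.69 and at 1.05 after scaling. It is the extreme of the 14 tested genes and was called in no setting. AKR1C3, a prostaglandin F synthase and steroid reductase gene, had the smallest p, at 417, 291 and 313 FPKM in controls and 235, 237 and 148 FPKM with TP53TG1 (log2 difference -0.73, SE 0.283, limma adjusted p = 0.748). Groups did not overlap for 6 of the 14, all lower with TP53TG1, and after scaling for 1 lower and 1 higher. Over all tested genes the shares were 13.3% lower without scaling, and 2.18% lower and 1.89% higher with it. Over the 9 lists together 22 of 116 genes were lower without overlap before scaling (19.0%). After scaling 1 was lower and 2 were higher. The eicosanoid share was the highest of the lists with more than 2 tested genes. PTGR1, which inactivates prostaglandins and leukotriene B4, was the highest of the list, at 1095 ± 145 and 793 ± 146 FPKM (SD, n = 3 each). CBR1, a carbonyl reductase gene, was at 206, 215 and 213 FPKM in controls and 88.8, 182 and 162 FPKM with TP53TG1. After scaling the log2 differences were -0.33 for AKR1C3, -0.07 for PTGR1 and -0.21 for CBR1. Of the enzymes that return or hydrolyse lysophospholipids, 23 of 26 were tested, with a median of -0.46, the lowest of the lists with more than 3 tested genes. ABHD16A, a phosphatidylserine lipase gene, was at 16.3 ± 0.576 FPKM in controls and 9.98 ± 0.683 FPKM with TP53TG1 (SD, n = 3 each, log2 difference -0.65 and -0.28 after scaling). ABHD4, a lysophospholipase gene, was at 51.2 ± 6.56 and 32.4 ± 7.78 FPKM. GPCPD1, a glycerophosphocholine phosphodiesterase gene, was at 17.5 ± 4.17 FPKM in controls and 9.49 ± 5.62 FPKM with TP53TG1, with overlapping groups. Scaled log2 differences were -0.27 for ABHD4 and -0.55 for GPCPD1.

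Lipid droplet and neutral lipase genes (20 of 28 tested) had a median of -0.35, the same as all genes. CES1, a carboxylesterase gene of hepatocytes, was at 541, 493 and 447 FPKM in controls and 251, 397 and 361 FPKM with TP53TG1. PLIN2, which coats lipid droplets, was at 105 ± 32.0 and 86.2 ± 15.1 FPKM (SD, n = 3 each). LPIN2, a phosphatidate phosphatase gene of triglyceride synthesis, was at 6.61, 3.81 and 5.14 FPKM in controls and 4.50, 1.92 and 0.80 FPKM with TP53TG1. PLCD3, a phospholipase C gene, was at 58.9, 40.8 and 46.7 FPKM in controls and 19.8, 34.1 and 34.8 FPKM with TP53TG1, without overlap. Its groups overlapped after scaling. Scaled log2 differences were -0.17 for CES1, 0.14 for PLIN2, -0.64 for LPIN2 and -0.34 for PLCD3. The medians were -0.39 for triglyceride and phospholipid synthesis (23 tested), -0.36 for fatty acid activation and binding (8), -0.48 for apolipoprotein B particle assembly (3) and -0.35 for phospholipases B, C and D (14).

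**Figure D5:**
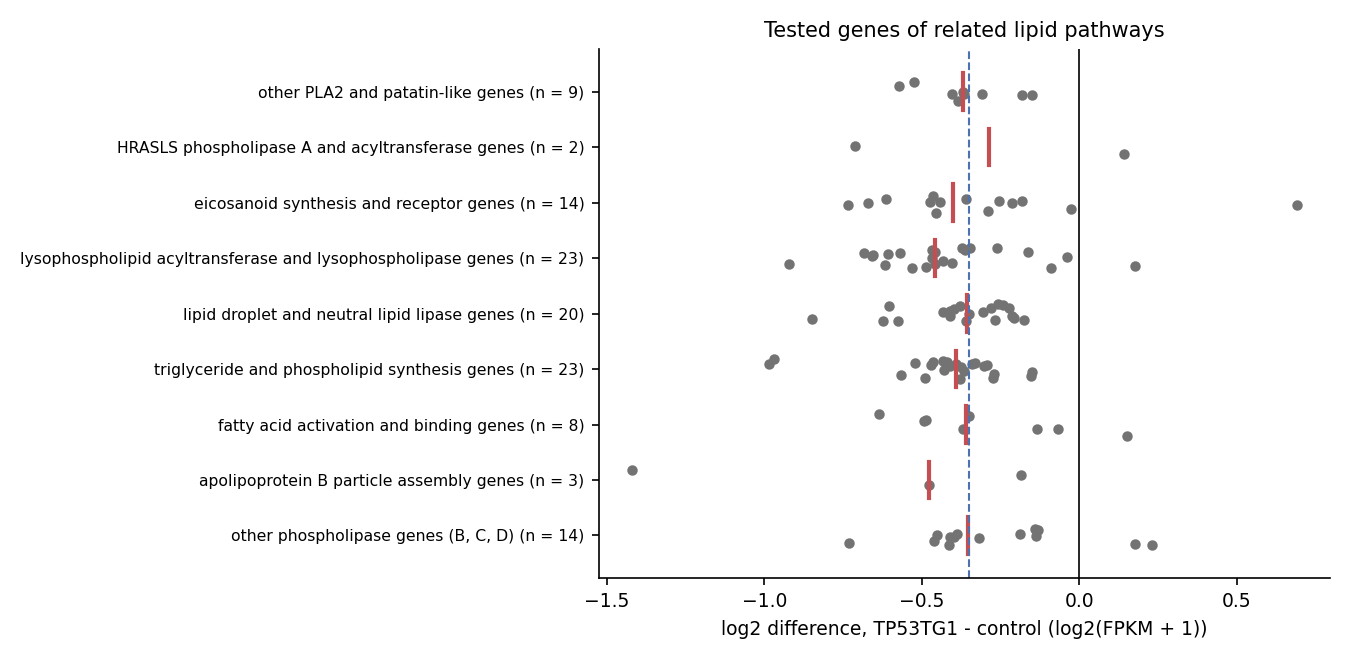
Log2 difference, TP53TG1 minus control, of each tested gene (points) in the 9 lists, with the list median (red bar) and the median of all tested genes, -0.35 (dashed line). The list medians lie between -0.48 and -0.28, close to the dashed line, and the lowest point is MTTP at -1.42.

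The immediate neighbours of PLA2G12A on chromosome 4 were read beside it. CASP6, an executioner caspase gene, stood at 14.2, 15.0 and 11.1 FPKM in controls and 7.78, 8.78 and 8.04 FPKM with TP53TG1, without overlap and with a ratio of means of 0.611. CFI, a complement regulator gene, stood at 1.76 ± 0.252 and 1.76 ± 0.677 FPKM (SD, n = 3 each). After scaling the groups of CASP6 overlapped, and the log2 differences were -0.27 for CASP6 and 0.21 for CFI. The genes most like PLA2G12A over the 6 libraries, by Pearson correlation of scaled log2(FPKM + 1), were ENTPD6 (r = 0.980), MZF1 (0.974), A4GALT (0.967), ARRDC1-AS1 (0.960) and DNAH11 (0.957). All 6 libraries share the replicate numbering and the group difference, and 39 of 12852 genes exceeded 0.9, so these values only describe a shared order.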

How the data were processed

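RNA of cells labelled Huh7 was sequenced in 3 control and 3 TP53TG1 libraries. Per the submitters' processing notes, HISAT2, StringTie and the genome build GRCh38.p10 were used, with versions and parameters not given in the sources used here. Each deposited table lists 1 value per transcript, taken here as FPKM because the values have decimals and library totals differ (599081 to 890541). Blank gene names were filled from the other tables by transcript. Transcripts were added per gene, and genes averaging 1 FPKM or more entered limma 3.58.1 on log2(FPKM + 1) (mean-variance trend, R 4.3.3), all genes together, with Benjamini-Hochberg adjustment at 0.05. Length weighting multiplied FPKM by GENCODE release 29 lengths, known for 99.85% of transcripts. Median-of-ratios factors used the 16218 genes above 0 in all libraries. No counts were used. The depth is an estimate from percentile 5 of FPKM times length (single-transcript genes of 300 to 1500 nt, values outside a set range left out). The fits were tested on simulated data. Joins used Python 3.11.15 and pandas 2.3.3.

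The members and lists were chosen with earlier results of these data known. Named are all members, transcripts with at least 10% of a member's FPKM, list genes past the threshold, up to 3 with the smallest p or the highest mean in a list, and the 5 genes most like PLA2G12A. RGPD6 and PTGS2 were named after their values were seen. Deviations from group means correlated at 0.710, 0.562 and 0.289 between libraries of the same number, all above the set limit of 0.1. Values paired by number and a blocked fit are therefore given as alternatives, while the main fit used the group only. Of the unlike numbers, control 3 with TP53TG1 2 (0.400) and control 2 with TP53TG1 3 (0.302) also lay above the value of number 3. The numbers are only in the titles, and the blocked fit is given where it changes a call. Protein sequences were not used here.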

Additional observations from a re-analysis of the deposited data

How the results depend on the processing

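Counts of genes called (1 without alternatives) were 192 with the replicate block, 6 with block and median-of-ratios scaling, 2 with scaling alone, with a minimum mean of 5 FPKM, and with length weighting with or without scaling, and 0 with no filter. They ranged from 0 to 1 when 1 library was left out, with 0 without control replicate 1 or 3. Counts of transcripts called (1) were 12 with the replicate block and 0 with scaling, with block and scaling, with no filter, with a minimum mean of 5 FPKM and without both libraries numbered 1, and ranged from 0 to 1 with 1 library left out. Pathway genes called went from 0 to 1 with the replicate block. Of the 8 lipase genes tested, 7 had a negative difference, and 4 with length weighting and scaling. Length weighting was added after the data were seen. The replicate block changed the call of PLA2G12A and of MTTP and of no other gene named among the lipases and pathway lists.

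The log2 difference of PLA2G12A stayed negative over its 18 alternatives, from -3.43 (245 nt transcript alone) to -0.28 (length weighting, with scaling factors recomputed from the weighted sums; -0.29 with those of the plain sums). That of PLA2G16 did too (-0.84 to -0.22). PNPLA3 took the opposite sign in 7 of 17, PLA2G15 in 4 of 18, PLA2G4A in 3 of 17, and PLA2G6, PNPLA2 and PNPLA8 in 1 each. A replicate block, a filter or the trend setting leaves a log2 difference as it was. Block with scaling repeats the value of scaling alone. The counts of alternatives therefore hold repeated values and do not measure how stable a sign is. The unit is taken from the values, and library depth limits transcripts near 1 FPKM most.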

Other observations

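Markers of other cell types were read in the same libraries. Fibroblast and mesenchymal markers (6 of 7 with a mean of at least 1 FPKM) summed to 128 to 161 FPKM in controls and 120 to 143 FPKM with TP53TG1. Macrophage and leukocyte markers (2 of 7, CD68 and CD14) summed to 33.8 to 64.9 and 47.4 to 66.1 FPKM, and endothelial markers (2 of 5, KDR and PECAM1) to 6.86 to 12.2 and 1.96 to 9.19 FPKM. The group ranges of these 3 lists overlapped, and no marker was listed at 0 in all libraries. GENCODE release 29 also places a readthrough gene, AC126283.2, over PLA2G12A on the same strand. It was not analysed here.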
